A study of Mus musculus with 8 samples.

Results

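The 10 genes described here are components of the circadian clock: the PAR bZIP factors Dbp and Tef, the period genes Per1, Per2 and Per3, the nuclear receptors Nr1d1 and Nr1d2, the activator Clock, and the cryptochromes Cry1 and Cry2. They were chosen by symbol as a check of sampling time between libraries and tissues, and 10 of 10 were listed both among the 11554 genes of the small intestinal crypt table and among the 12701 genes of the villus table. Crypt and villus RNA came from C57BL/6 mice of 2 genotypes, 1 month after tamoxifen, with 2 samples per genotype and tissue. Ctrl mice are described in the sample labels as WT carrying Gli1-CreERT2 and a Rosa26-tdTomato reporter, and in a legend of the study as carrying floxed Ptgs1 and Ptgs2 without Cre. Gli1-PtgscKO mice carry Gli1-CreERT2 with floxed Ptgs1 and Ptgs2, the genes of the prostaglandin-producing enzymes COX1 and COX2. Cre in this model acts in Gli1-expressing mesenchymal cells, not in the epithelium that the labels say was collected. Age and hour of sampling are not given in the sources used here.

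The mammalian clock is a feedback loop with a period of about a day, present in most cells. The proteins of Clock or its relative Npas2 pair with that of Arntl (BMAL1) and activate genes with an E-box, among them Dbp, Tef, the Per and Cry genes and both Nr1d genes. PER and CRY proteins then inhibit that activator, while NR1D1 and NR1D2 (REV-ERBs) repress Arntl, Npas2 and Clock through ROR elements. DBP and TEF act through D-boxes, where NFIL3 opposes them. In intestine, as in other peripheral tissues, mRNA of most of the activator's targets, though not of all, is high when that of Arntl is low. Feeding time can set the phase.

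Promoter sequence from RefSeq (GRCm38.p6) shows where these elements stand. The windows searched ran from 250 bases before to 50 bases after each annotated start, and one was found for 9 of 10 members and 8 of 9 partner genes of the loop. The E-box searched was CACGTG, which 7.15% of all 32851 windows held. These windows belong to 27025 genes, and some genes have several, so shares of windows and counts of genes are unlike units. Of the 9 members searched 3 had CACGTG in a window, and the stretches below are shown because E-boxes are what the activator binds. Capitals mark the match, and each sequence reads 5′ to 3′ on the strand of its gene.
Per1, chr11:69098763-69098808, plus strand: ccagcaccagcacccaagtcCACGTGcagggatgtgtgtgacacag
Cry1, chr10:85185089-85185134, minus strand: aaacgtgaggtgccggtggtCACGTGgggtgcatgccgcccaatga
Tef, first start, chr15:81802526-81802571, plus strand: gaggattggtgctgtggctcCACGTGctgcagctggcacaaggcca
Tef, second start, chr15:81811256-81811301, plus strand: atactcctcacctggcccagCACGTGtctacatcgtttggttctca

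The D-box was searched as TTATGTAA, TTACGTAA or TTATATAA on both strands, and 1.59% of windows held one. Per3 was the member with a match, and it had 2. The ROR element was searched as TAGGTCA on both strands, with 2.61% of windows holding it. It was found in none of the 9 members searched and in 2 partners, Arntl and Nfil3, which belong to the arm that REV-ERBs repress. The cAMP element TGACGTCA (1.79% of windows) was found in none of the 9 members searched. A match is a description of these letters in this window only.
Per3, D-boxes, chr4:151044796-151044890, minus strand: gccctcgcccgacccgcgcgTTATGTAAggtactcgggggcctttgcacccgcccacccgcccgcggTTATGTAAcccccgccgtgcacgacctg
Arntl, ROR element, chr7:113207530-113207558, plus strand: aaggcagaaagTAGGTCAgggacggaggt
Nfil3, ROR element on the other strand, chr13:52981040-52981071, minus strand: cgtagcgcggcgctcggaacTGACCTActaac

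Values are normalized counts, the authors' read counts divided by a size factor per library. The crypt libraries held between 16853017 and 21121714 reads on listed genes and the villus libraries between 13477600 and 15751024. The 2 Ctrl villus columns held the same value for each of the 12701 genes and entered as 1 library, which leaves 7 distinct libraries. Stem cell markers were high in crypts and enterocyte markers in villi. Ptgs1 had 365 and 164 normalized counts in Ctrl crypts and 178 and 199 in Gli1-PtgscKO crypts, which overlap. Neither Ptgs2 nor Gli1 is listed. In the crypts, longer transcripts were lower in Gli1-PtgscKO replicate 1 than in replicate 2 (Spearman -0.67 across 11546 genes), and in the villi they were higher in Gli1-PtgscKO than in Ctrl (0.54 across 12692 genes). Values corrected for transcript length are therefore given beside the main ones for the 10 genes where genotypes are compared. The study's methods state 2 biological replicates, and the labels do not say whether these are separate mice. The p-values measure the spread between these samples only.

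Per kilobase of transcript, the REV-ERB genes had the highest levels of the 10 genes in Ctrl crypts, with means of 358 normalized counts per kb for Nr1d1 and 306.2 for Nr1d2. Clock followed with 217, and the ranges of these 3 genes did not overlap one another. Tef (132) and Dbp (130.1) overlapped. The negative limb of the loop was lower, from Cry1 with 64 through Per2 with 45.2, Per1 with 44.9 and Cry2 with 39.2 to Per3 with 31.5, and each of these overlapped its neighbour in the order. In the single Ctrl villus library Nr1d1 (735 per kb), Dbp (479) and Tef (280.2) led, Clock was at 39.5, and Per2 (11.3) and Per3 (7.53) were lowest.

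**Figure D1:**
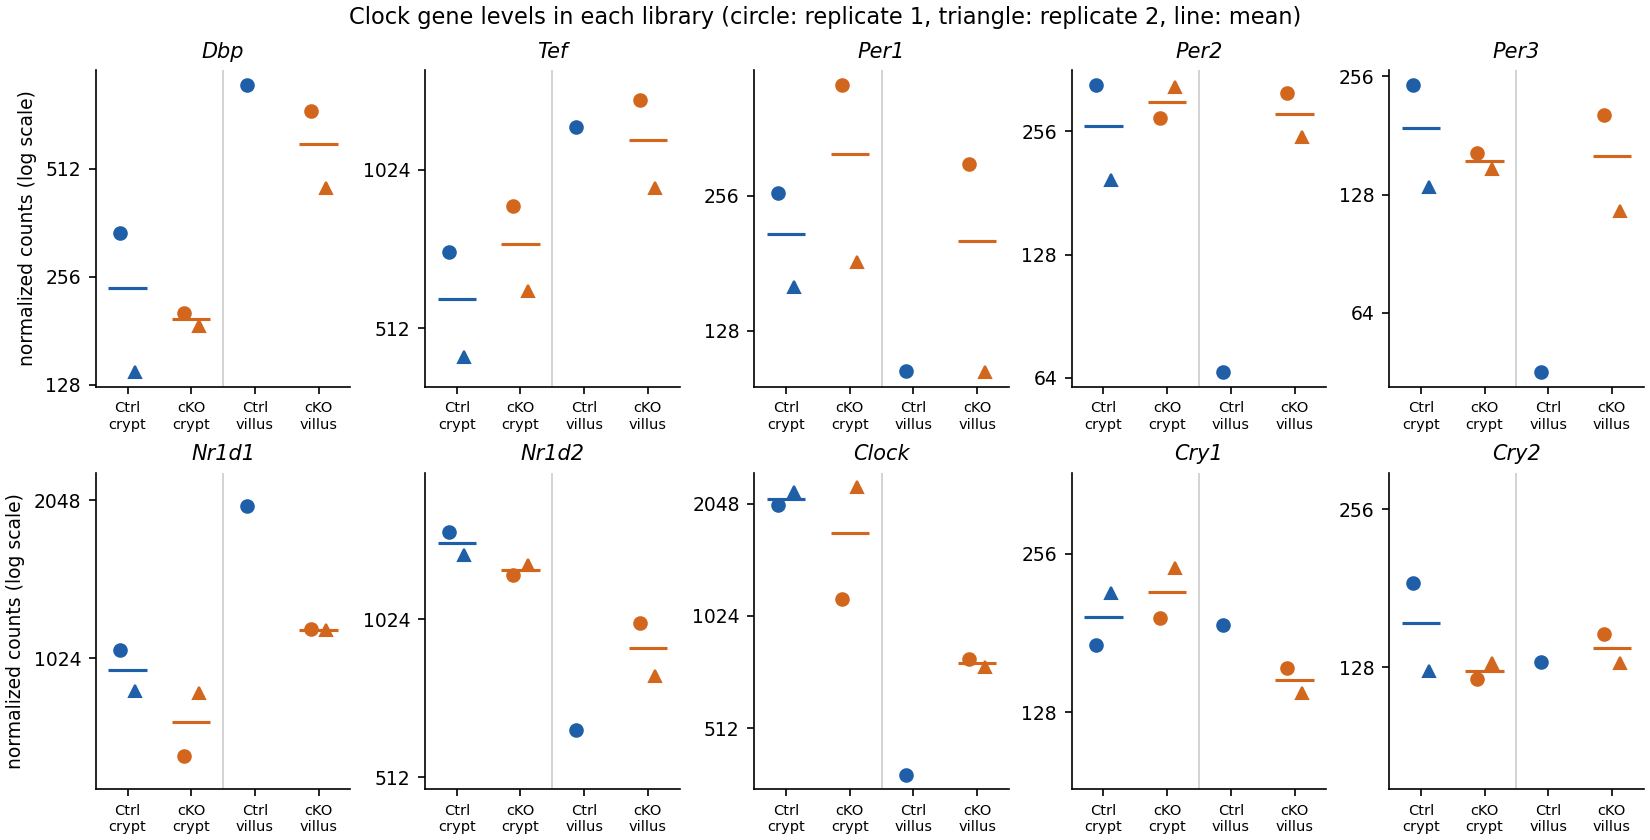
Normalized counts (log axis) of the 10 clock genes in each distinct library, with circles for replicate 1, triangles for replicate 2 and lines for group means; crypt and villus tables were normalized separately and the grey line divides them. In crypts the genotypes overlap for 8 of 10 genes, and Per2 and Per3 stand low in the Ctrl villus library.

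Crypts of the 2 genotypes were compared to ask whether mesenchymal COX deletion goes with another level of the clock genes. No member passed the study's threshold, an unadjusted p under 0.01 with an absolute log2 fold change over 1, which 0.182% of all tested genes passed, and none had an adjusted p under 0.05 (0.0% of all genes). At an unadjusted p under 0.05 there were also 0 members, against 0.632% of all genes. The test was limma-trend on log2(normalized count + 1), and the adjusted p by limma was 1.00 for each member. Fold changes below are Gli1-PtgscKO against Ctrl on that scale, with 2 libraries in each group. An exact permutation test of 2 against 2 cannot give a two-sided p below 0.333.

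Both REV-ERB genes had all Gli1-PtgscKO crypt libraries below all Ctrl crypt libraries. Nr1d1 (chr11:98767932-98775333, GRCm38, as for the genes below) had 1062 and 887 normalized counts in Ctrl and 668 and 879 in Gli1-PtgscKO. The nearest libraries of the 2 groups lay close together, and the log2 fold change was -0.34 (SE 0.27, 95% interval -0.99 to 0.31). Nr1d1 shares 1075 bases of its span with Thra on the other strand, and since the strand setting of the counting is not given in the sources used here, reads there cannot be told apart. Nr1d2 (chr14:18204054-18239127) had 1502 and 1354 in Ctrl and 1242 and 1298 in Gli1-PtgscKO, a log2 fold change of -0.17 (SE 0.24). These 2 of 10 members compare with 21.0% of all genes whose groups did not overlap (9.73% with Gli1-PtgscKO above, 11.3% below). After correction for transcript length no member had groups that did not overlap.

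Dbp and Tef, transcription factors that pass the rhythm on to output genes, overlapped between genotypes. Dbp (chr7:45705088-45710203) had 339 and 139 normalized counts in Ctrl and 204 and 187 in Gli1-PtgscKO. Its Ctrl libraries lay on either side of both others, and the log2 fold change was -0.15 (SE 0.48, 95% interval -1.30 to 0.99). Dbp shares 737 bases with Sphk2 on the other strand. Tef (chr15:81802421-81826863) had 714 and 451 in Ctrl and 875 and 602 in Gli1-PtgscKO, a log2 fold change of 0.35 (SE 0.34). In both genotypes replicate 1 was the higher library for Tef.

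The period genes encode the PER proteins that inhibit the activator. Per1 (chr11:69095217-69109960) had 259.6 and 160.2 in Ctrl and 452 and 182 in Gli1-PtgscKO, a log2 fold change of 0.49 (SE 0.51). The highest library was Gli1-PtgscKO replicate 1, and the groups overlapped. Per2 (chr1:91415982-91459324) had 333 and 194 in Ctrl and 276 and 329 in Gli1-PtgscKO, with a log2 fold change of 0.24 (SE 0.37). Per3 (chr4:151003652-151044665), which lies inside the annotated span of Camta1, had 244 and 134 in Ctrl and 164 and 149 in Gli1-PtgscKO, a log2 fold change of -0.21 (SE 0.42). For both, the Gli1-PtgscKO libraries lay within the Ctrl range.

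Clock, a partner of the activator, had 2033 and 2195 normalized counts in Ctrl and 1136 and 2272 in Gli1-PtgscKO (chr5:76209868-76304792). The low value is that of replicate 1, where longer transcripts were lower than in replicate 2, and the Clock transcript, at 9744 bases, is the longest of the 10. The log2 fold change was -0.39 (SE 0.36), or -0.10 after length correction. Without Gli1-PtgscKO replicate 2 it was -0.89, with an adjusted p of 0.0133 by limma, in a fit where 1987 of 11554 genes passed and the lone Gli1-PtgscKO library was assumed to vary as the Ctrl libraries do. Cry1 (chr10:85131700-85185064) had 171 and 216 in Ctrl and 193 and 240.3 in Gli1-PtgscKO, a log2 fold change of 0.16 (SE 0.35). Cry2 (chr2:92403646-92434043) had 186 and 126 in Ctrl and 122 and 131 in Gli1-PtgscKO, a log2 fold change of -0.28 (SE 0.40). The cryptochromes, which act with PER as inhibitors, overlapped between genotypes. Over the 10 members the median log2 fold change was -0.16, against -0.01 over all genes, and -0.06 after length correction. With that correction the log2 fold change was -0.31 for Dbp, 0.43 for Tef, 0.59 for Per1, 0.41 for Per2 and -0.04 for Per3. It was -0.39 for Nr1d1, -0.07 for Nr1d2, 0.14 for Cry1 and -0.23 for Cry2, so the sign of each gene was the same as without it.

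Of the 9 partner genes, 5 were listed in the crypt table, and 0 had an adjusted p under 0.05 by limma. Arntl, the obligate partner of Clock, had 514 and 664 normalized counts in Ctrl and 444 and 573 in Gli1-PtgscKO, a log2 fold change of -0.21 (SE 0.29). Npas2, which can replace Clock, had 297 and 525 in Ctrl and 229 and 434 in Gli1-PtgscKO. In both genotypes replicate 2 was the higher library for these activator genes. Nfil3, the repressor at D-boxes, had 281 and 248 in Ctrl and 182 and 179.9 in Gli1-PtgscKO, a log2 fold change of -0.54 (SE 0.32). Rora, an activator at ROR elements, had 74 and 60.3 in Ctrl and 38.8 and 52.5 in Gli1-PtgscKO. For Nfil3 and Rora, 2 of the 5 listed partners, both Gli1-PtgscKO libraries were below both Ctrl libraries, beside 11.3% of all genes (21.0% on either side). The log2 fold change of Rora was -0.56, or -0.24 after length correction, and that of Nfil3 with the correction was -0.68. Bhlhe40, a repressor at E-boxes, had 1655 and 1053 in Ctrl and 1603 and 1188 in Gli1-PtgscKO. Hlf, Bhlhe41 and Ciart were listed in the villus table alone and Rorb in neither.

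Around the loop, 11 of 12 kinases and ubiquitin ligases that act on clock proteins were listed in crypts, their median log2 fold change was -0.08, and 4 had both Gli1-PtgscKO libraries below Ctrl, beside 11.3% of all genes. The lowest were Huwe1 (5709 and 5914 in Ctrl, 2164 and 5643 in Gli1-PtgscKO) and Csnk1e (509 and 451 in Ctrl, 346 and 314 in Gli1-PtgscKO), the gene of casein kinase 1 epsilon, which phosphorylates PER. Btrc, which marks PER for breakdown, had a log2 fold change of -0.27. Among 10 rhythmic outputs the median was -0.16, with Por at 0.49 and Noct at -0.28. The listed genes of glucocorticoid response (6), temperature response (8) and cAMP and immediate early response (8) had medians of 0.21, -0.04 and 0.17. In these 5 lists 0 genes had an adjusted p under 0.05 by limma.

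Activator targets differed between the replicates of Ctrl crypts. Replicate 1 was over 1.5-fold above replicate 2 for 5 of 10 members and below it by that much for 0, against 6.4% and 5.39% of all genes. These 5 were Dbp, Per3, Per2, Per1 and Tef, targets of the activator, with log2 differences of 1.28, 0.86, 0.77, 0.69 and 0.66. Of the other targets, Cry2 differed by 0.55, Nr1d1 by 0.26 and Nr1d2 by 0.15, and Cry1 went the other way, at -0.33. Clock, Arntl and Npas2, the activators, were lower in replicate 1, with differences of -0.11, -0.37 and -0.82. The median absolute difference between Ctrl crypt replicates was 0.61 over the 10 members and 0.19 over all genes. In Gli1-PtgscKO crypts 1 member (Per1) was over 1.5-fold higher in replicate 1 and 1 (Clock) lower, beside 22.2% and 20.5% of all genes (42.7% in either direction). In Gli1-PtgscKO villi 3 members (Dbp, Per1 and Per3) were higher in replicate 1 and 0 lower, beside 5.63% and 6.97%.

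A contrast of the 2 arms was taken in each library as the mean log2 level of Dbp, Tef, Per1, Per2, Per3, Nr1d1 and Nr1d2 minus that of Arntl, Npas2 and Clock. A scaling of the whole library cancels in it. The balance was -0.43 and -1.53 in Ctrl crypts and -0.16 and -1.12 in Gli1-PtgscKO crypts. The genotypes overlapped, and in both the higher library was replicate 1. In villi it was 0.90 in Ctrl and 1.17 and 0.10 in Gli1-PtgscKO, again on both sides of Ctrl. The difference between replicates 1 and 2 was thus 1.10 in Ctrl crypts, 0.96 in Gli1-PtgscKO crypts and 1.07 in Gli1-PtgscKO villi. The difference between genotype means was 0.34 in crypts and -0.27 in villi, smaller than any of these. With length correction the replicate differences were 1.09, 0.75 and 1.09, and without Clock 1.26, 0.84 and 1.34. The arms did not contribute alike in each group. Replicate 1 minus replicate 2 of the target arm was 0.67 in Ctrl crypts, 0.20 in Gli1-PtgscKO crypts and 0.61 in Gli1-PtgscKO villi. For the arm of Arntl, Npas2 and Clock it was -0.43, -0.76 and -0.46. With length correction the target arm was at 0.70, 0.35 and 0.59 and the other at -0.38, -0.39 and -0.50.

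**Figure D2:**
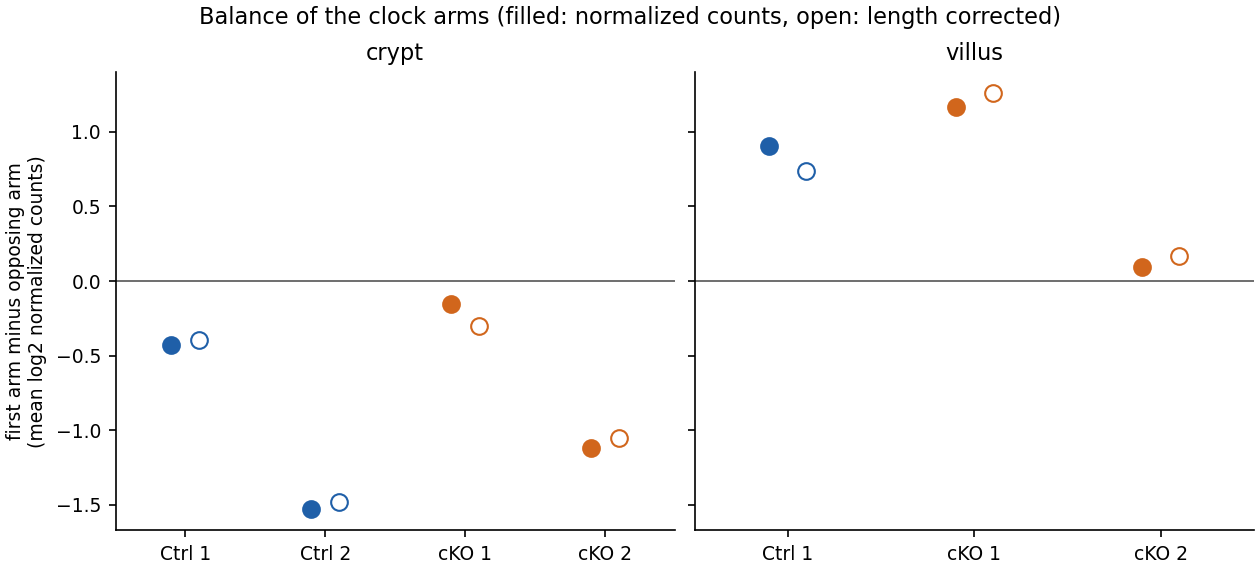
Balance of the clock arms in each distinct library, the mean log2 normalized count of 7 target genes minus that of Arntl, Npas2 and Clock, with filled points for normalized counts and open points for values corrected for transcript length. Replicate 1 lies above replicate 2 in each group with 2 libraries, and the genotypes overlap within each tissue.

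The replicate differences of single genes were set side by side between groups. Per1 was higher in replicate 1 by 0.69 in Ctrl crypts, 1.31 in Gli1-PtgscKO crypts and 1.53 in Gli1-PtgscKO villi, and Npas2 was lower by a log2 difference of -0.82, -0.92 and -0.83. Dbp was less alike, at 1.28, 0.12 and 0.71. In Gli1-PtgscKO crypts Nr1d1 (-0.40), Cry1 (-0.31), Per2 (-0.25), Cry2 (-0.10) and Nr1d2 (-0.06) were lower in replicate 1. Tef (0.54) and Per3 (0.14) were higher. After length correction the targets lower in replicate 1 there were Nr1d1 (-0.61), Cry1 (-0.44) and Dbp (-0.42). Across the 10 members and the 5 partners in both tables, Pearson's r of the replicate differences without this correction was 0.64 between Ctrl and Gli1-PtgscKO crypts, 0.71 between Ctrl crypts and Gli1-PtgscKO villi, and 0.68 between Gli1-PtgscKO crypts and villi. Over all 11227 genes in both tables it was 0.28, 0.01 and 0.02. In the same 3 pairs of groups the sign of the difference was shared by 10, 12 and 7 of the 15 genes, and by 7065, 5402 and 5158 of all 11227. For the 10 members alone r was 0.52, 0.57 and 0.89, with 6, 8 and 4 signs shared. With length correction r was 0.55, 0.74 and 0.76 for the 15 genes and 0.25, 0.03 and 0.13 for all genes. These are descriptions across 15 genes that share libraries and are not independent. The labels give these samples only a shared number, and whether that number marks a day, a litter or an hour was not tested. Other genes also differed between replicates: in Ctrl crypts the summed level of 8 immediate early genes was 23848 in replicate 1 and 10961 in replicate 2 (5 of 8 over 1.5-fold higher in replicate 1), that of 6 listed mesenchymal markers 15686 and 8554 (6 of 6), and that of 6 enterocyte markers 52328 and 76464. In Gli1-PtgscKO crypts the immediate early sums were 26645 and 12811. The mesenchymal (9923 and 13901) and enterocyte sums (71920 and 69258) went the other way there than in Ctrl crypts. In Gli1-PtgscKO villi the 3 sums were 8523 and 5893, 2041 and 1779, and 298437 and 281750. The part of these cell types in the clock gene values was not tested, and in bulk samples fewer cells of a type and less RNA per cell cannot be told apart.

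**Figure D3:**
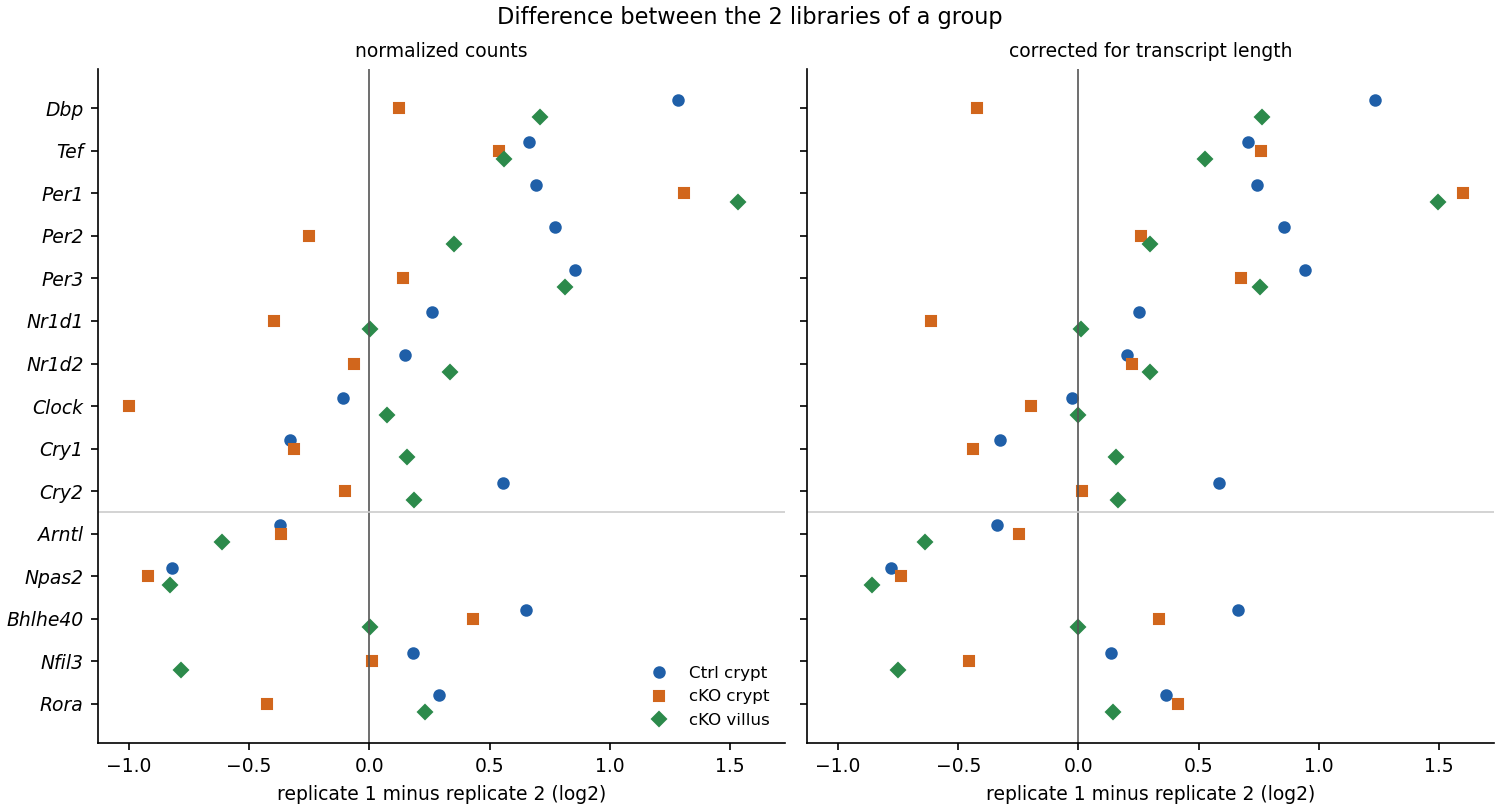
Log2 difference between replicate 1 and replicate 2 for the 10 clock genes and 5 partners (below the grey line) in the 3 groups with 2 libraries, from normalized counts on the left and corrected for transcript length on the right. Per1 lies right of 0 and Npas2 left of 0 in each group.

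In villi there was 1 Ctrl library, so differences have no replicate check in Ctrl and no test was made. Genes were called when the mean of the Gli1-PtgscKO libraries was over 2-fold from Ctrl with both on the same side. Per2 and Per3 were called, both higher, which is 2 of 10 members beside 13.4% of all genes higher and 9.4% lower (22.8% in all). Per2 had 66 normalized counts in Ctrl and 317 and 248 in Gli1-PtgscKO, a log2 difference of 2.07. Per3 had 45.2 in Ctrl and 204 and 116 in Gli1-PtgscKO, a log2 difference of 1.75. In Ctrl these rested on 57 reads (95% Poisson interval 43.2 to 73.9) and 39 reads (27.7 to 53.3), intervals that cover counting error only. Both genes have long transcripts, 5833 and 5999 bases, and after length correction their differences were 1.55 and 1.20, and they stayed the 2 members called, beside 14.1% of all genes.

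The other period gene and the activators were less apart. Per1 had 104 in Ctrl and 301.2 and 103 in Gli1-PtgscKO, so 1 library matched Ctrl and the other was higher. Clock had 385 in Ctrl and 786 and 747 in Gli1-PtgscKO, a log2 difference of 0.99 that was 0.03 after length correction. Arntl had 90.4 in Ctrl and 135 and 208 in Gli1-PtgscKO, a log2 difference of 0.88, or 0.74 with length correction. Npas2 had 159 in Ctrl and 165 and 295 in Gli1-PtgscKO.

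Among the REV-ERB genes, Nr1d1 had 1999 in Ctrl and 1163 and 1161 in Gli1-PtgscKO, a log2 difference of -0.78, and Nr1d2 had 630.2 in Ctrl and 1005 and 797 in Gli1-PtgscKO, a difference of 0.51. The 2 genes thus lay on opposite sides of Ctrl. Dbp had 879 in Ctrl and 744 and 454 in Gli1-PtgscKO (log2 difference -0.60), and Tef had 1234 in Ctrl and 1392 and 945. Cry1 had 188 in Ctrl and 155 and 139 in Gli1-PtgscKO, and Cry2 had 131 in Ctrl and 148 and 130.4. In all, 4 members lay above Ctrl in both libraries and 3 below, beside 87.8% of all genes on one side. After length correction the log2 difference was -0.18 for Dbp, -0.34 for Tef and 0.45 for Per1. It was -0.62 for Nr1d1, 0.21 for Nr1d2, -0.28 for Cry1 and -0.06 for Cry2, which without it was at 0.09. Scaling by library size alone raised the median of all genes by 0.43, and with it Tef (0.33) and Cry1 (0.08) turned to higher, while Dbp (-0.16) and Nr1d1 (-0.35) stayed lower. Under that scaling Per1 and Clock were called as well, beside 25.3% of all genes called higher and 2.33% lower. Of all calls 91.6% were higher in place of 58.8%.

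For the 8 partners listed in villi the mean of Gli1-PtgscKO was within 2-fold of Ctrl. Hlf, a PAR bZIP factor like Dbp, had 44 in Ctrl and 105.5 and 51.2 in Gli1-PtgscKO. Ciart, a repressor of the loop, had 15.1 in Ctrl and 29.1 and 7.73, and Bhlhe41 had 18.5 in Ctrl and 7.65 and 12.6, all few counts. Nfil3 had 124 in Ctrl and 59.6 and 103 in Gli1-PtgscKO. Bhlhe40 had 616 in Ctrl and 704 and 702 in Gli1-PtgscKO, and Rora had 6.95 in Ctrl and 13.8 and 11.6 in Gli1-PtgscKO. Of the wider lists, 1 of 12 kinases and ligases (Huwe1, 1.27), 1 of 10 rhythmic outputs (Abcb1a, 2.16), 1 of 6 glucocorticoid genes (Sgk1, 1.05) and 3 of 8 immediate early genes (Sik1, 2.23, Fosb, 1.59, and Egr1, 1.24) were called higher, and 0 of 8 temperature genes were called, beside 13.4% of all genes called higher. Abcb1a, Sgk1, Fosb and Egr1 are named here after their values were seen. After length correction Huwe1 was at 0.02. Among markers of other cells, 5 of 8 immune genes were called lower in Gli1-PtgscKO villi, with a summed level of 24171 in Ctrl and 7062 and 7373 in Gli1-PtgscKO, and the part of this in the clock gene differences was not tested.

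**Figure D4:**
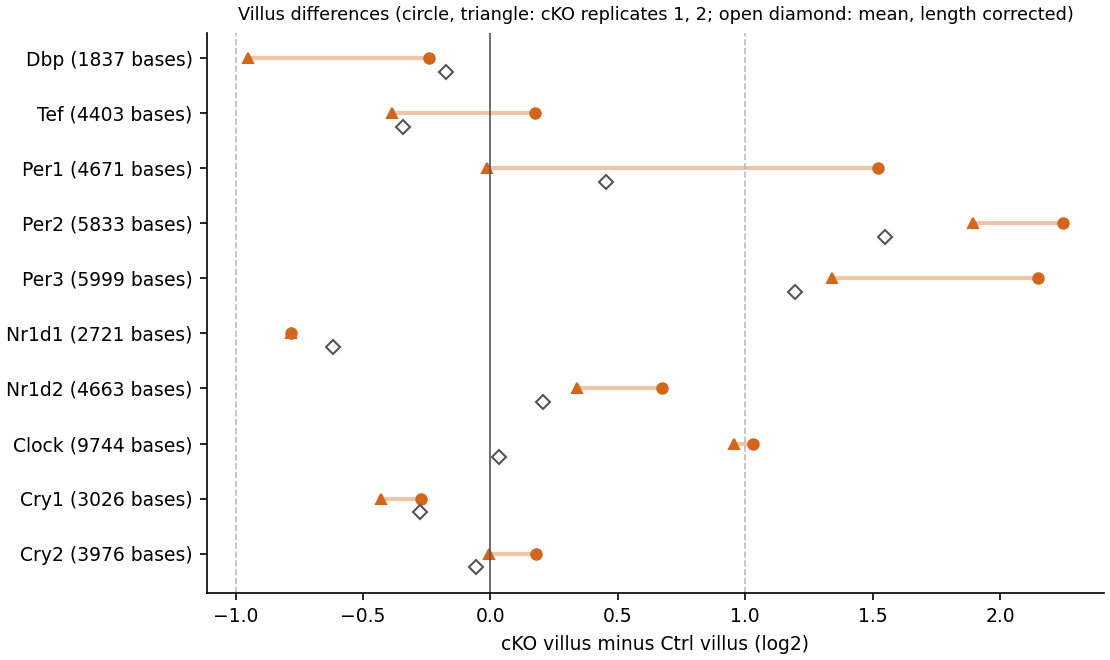
Log2 difference of each Gli1-PtgscKO villus library from the Ctrl villus library for the 10 clock genes, with their transcript lengths, circles for replicate 1, triangles for replicate 2 and open diamonds for the length-corrected mean. Per2 and Per3 lie past the dashed 2-fold line in both libraries, and the diamond of Clock lies near 0.

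Crypts and villi were set side by side in RPM, reads scaled to the same total over the 11227 genes in both tables, with no test since the tables were normalized separately. Dbp, Tef and Nr1d1 were higher in each of the 3 villus libraries than in each of the 4 crypt libraries, 3 of 10 members beside 11.1% of all genes above and 52.3% below (63.4% apart in all). Dbp had 7.3 to 18.5 RPM in crypts and 35 to 62 in villi, a villus minus crypt log2 difference of 2.06 in Ctrl and 2.12 in Gli1-PtgscKO. For Tef the difference was 1.24 in Ctrl and 1.29 in Gli1-PtgscKO, and for Nr1d1 1.17 and 1.23. Whether these differed between genotypes was not tested. Of the 3 activator genes, Arntl was lower in every villus library, by a log2 difference of -2.34 in Ctrl and -0.89 in Gli1-PtgscKO. Npas2 (-1.09 and 0.13) and Clock (-2.26 and -0.41) overlapped between tissues. Of the other partners in both tables, Rora (-1.70 and -0.72) and Nfil3 (-0.86 and -0.48) were lower in every villus library and Bhlhe40 (-0.93 and -0.31) overlapped.

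The median of all shared genes was itself lower in villi, by -1.06 in Ctrl and -0.56 in Gli1-PtgscKO on the log2 scale. Relative to it Dbp was higher by 3.13 and 2.68, Tef by 2.30 and 1.85, and Nr1d1 by 2.24 and 1.79, while Arntl was at -1.28 and -0.33. Clock, at -1.20 and 0.15, changed side between genotypes. With median-of-ratios scaling Cry1 and Cry2 also stood above, and Arntl, Rora and Nfil3 no longer stood apart. Longer transcripts were lower in villi than in crypts, more so in Ctrl (Spearman -0.46) than in Gli1-PtgscKO (-0.10, both across 11219 genes). Length correction also subtracts the shift common to all genes, and with it Clock was at -0.07 in Ctrl and 0.20 in Gli1-PtgscKO. Dbp (2.41 and 2.61), Tef (2.62 and 1.94) and Nr1d1 (1.96 and 1.79) stayed higher in every villus library. Nr1d2, Cry1 and Cry2 then stood above as well, and Arntl (-1.07 and -0.23), Rora and Nfil3 overlapped. The share of all genes apart was taken in RPM only, so the members added by either scaling have no such share beside them. Per1, Per2, Per3 and Nr1d2 overlapped between tissues in RPM. The hour at which crypts and villi were taken is not given in the sources used here, so tissue and sampling time cannot be told apart.

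**Figure D5:**
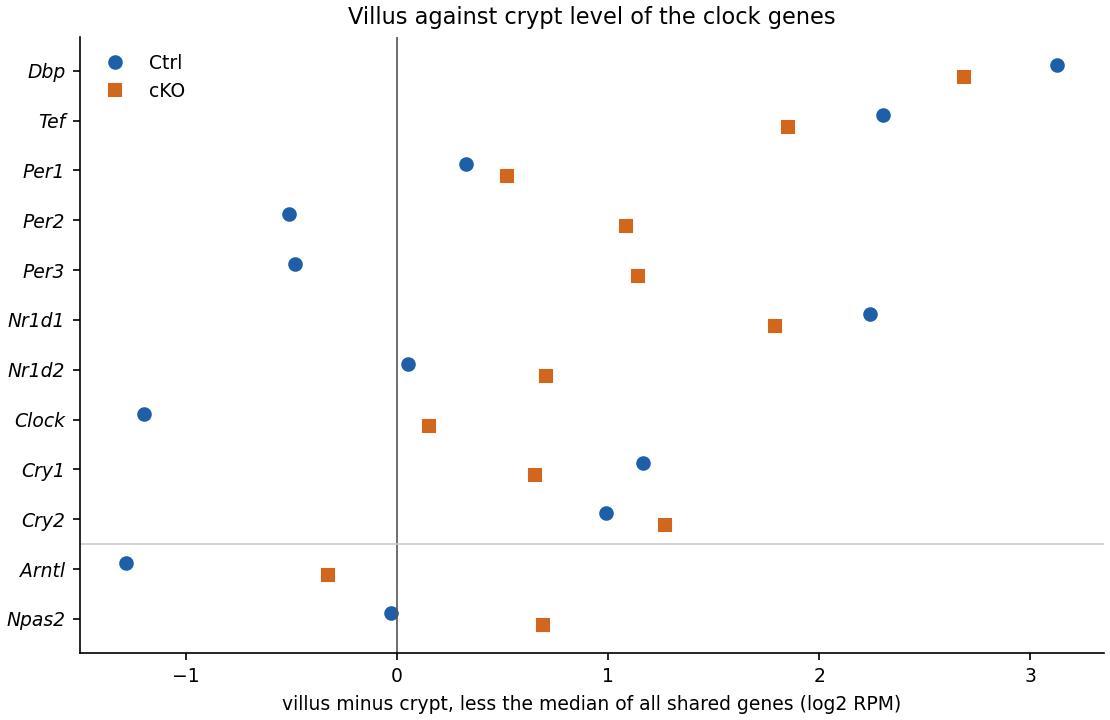
Villus minus crypt log2 difference in RPM, less the median of all shared genes, for the 10 clock genes and for Arntl and Npas2 (below the grey line), with circles for Ctrl and squares for Gli1-PtgscKO. Dbp, Tef and Nr1d1 lie furthest to the right in both genotypes.

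Genes whose pattern was most like that of Dbp were ranked by Pearson's r of log2 values centred on each table, over the 7 distinct libraries, among 4590 genes in both tables with a centred range of at least 1. The first 5 were Hist1h2ac (0.98), Ahnak2 (0.97), Gas1 (0.94), Col6a1 (0.93) and Lpl (0.93), and 5 genes were above 0.9. Hist1h2ac, a histone gene, had 89 and 28.8 normalized counts in Ctrl crypts, 55.6 and 45.8 in Gli1-PtgscKO crypts, 31.3 in Ctrl villi and 20.6 and 10.6 in Gli1-PtgscKO villi. Among the crypt libraries it was, like Dbp, highest in Ctrl replicate 1 and lowest in Ctrl replicate 2. So were Gas1 (827 and 312 normalized counts in Ctrl crypts) and Col6a1, a collagen gene (1081 and 416). The summed level of the 6 listed mesenchymal markers was also highest and lowest in these libraries (15686 and 8554). Unlike Dbp, it was higher in replicate 2 (13901) than in replicate 1 (9923) of Gli1-PtgscKO crypts. The part of these markers in the pattern of Dbp was not tested. Within the clock, Cry2 (0.72) and Tef (0.69) were nearest to Dbp, and Arntl (-0.73) and Npas2 (-0.75) were opposed to it. The other activator targets lay between. Nr1d1 was at 0.55, Per1 at 0.35, Per3 at 0.10, Nr1d2 at 0.06, Cry1 at -0.11 and Per2 at -0.12. Clock was at -0.33. Cry2, Tef, Nr1d1, Nr1d2 and Cry1 were not among the 4590 ranked genes. The points share libraries and size factors, and none of the 5 nearest genes is a clock gene.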

How the data were processed

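Bulk RNA sequencing covered 8 samples, crypts and villi of both genotypes. The authors aligned reads to mm10 with STAR and used DESeq2, per the submitters' processing notes. The labels and the study's methods name different RNA and library kits. The values in both deposited tables are a signal, each library's gene count over its size factor. Their spacing returned whole reads in 100% of cases (tolerance 0.01 read). The smallest gene mean over libraries was 48.4 normalized counts in the crypt table and 8.82 in the villus table, so weaker genes are not analysed here. Other columns hold the authors' own fold changes, standard errors and p-values, and were not used. Columns matching no sample numbered 0. Counting program, strand setting and annotation are not given in the sources used here.

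The 4 crypt libraries were compared with limma-trend (R 4.3.3, limma 3.58.1), without a block, on log2(normalized count + 1) of genes whose mean reached 1, with Benjamini-Hochberg adjustment over all genes. Length correction fitted a lowess curve (span 0.3) to each library's deviation from the gene's mean log2 level over libraries, against log transcript length. The curve was then subtracted, with R within each tissue and statsmodels 0.14.6 between tissues. Lengths were those of the longest transcript, matched to GENCODE M21 by identifier for 11546 crypt and 12692 villus genes. Alternatives were edgeR 4.0.16 and DESeq2 1.42.0 on recovered reads, the replicate number as a block, library size alone, no filter or a minimum of 10 in every library, length correction, a pseudocount of 0.1, and omission of single libraries. After seeing the data 2 more were chosen, the length correction between tissues and the left-out libraries for the arm balance and the non-overlap count. The fit was tested on simulated counts with known changes, and its recovery at the spread of these data is not reported here.

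Named were the 10 members, every listed partner gene (1 further partner is not reported here), up to 3 genes of each other list with the largest crypt change among those whose crypt groups did not overlap, the deleted genes, and the 5 genes most like Dbp. Members and lists were chosen with earlier results of these data known. Figures were drawn with matplotlib 3.10.9.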

Additional observations from a re-analysis of the deposited data

Results flagged for a closer look

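Of 21 named genes listed in both tables, 8 had both Gli1-PtgscKO crypt libraries on one side of Ctrl and both Gli1-PtgscKO villus libraries on the other, and 2 lay on the same side in both tissues. Huwe1, Csnk1e, Btrc, Por, Noct and Sik1 were named because their crypt groups did not overlap, so they met the crypt part of this criterion by choice, and the count is not comparable with the 1453 of all 11227 shared genes (12.9%) that were opposite. The difference between tissues was not tested for any of them, since Ctrl villi are 1 library.

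Nr1d2, a REV-ERB gene, had a log2 difference of -0.17 in crypts and 0.51 in villi. Rora, which competes with REV-ERBs, had -0.56 and 0.78, the villus value resting on 6 reads in Ctrl. Huwe1, a ubiquitin ligase, had -0.73 and 1.27. The casein kinase gene Csnk1e had -0.54 and 0.69, and Btrc had -0.27 and 0.37. Among rhythmic outputs, Por, the cytochrome P450 reductase gene, had 0.49 and -0.43, and Noct, a rhythmic phosphatase gene, had -0.28 and 0.52. Sik1, a cAMP-induced kinase gene, had -0.24 and 2.23, on 16 reads in Ctrl villi.

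After length correction the villus difference was 0.02 for Huwe1, 0.06 for Btrc, -0.26 for Rora and -0.44 for Noct, and the crypt difference of Noct was 0.02.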

How the results depend on the processing

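In crypts 0 members passed the study's threshold under each alternative run. With limma 0 had an adjusted p under 0.05, except 1 without Gli1-PtgscKO replicate 2 (Clock, 0 to 1 over the left-out libraries), where 3 (Per1, Nr1d1 and Clock; 0 to 3) had an unadjusted p under 0.05. In that fit 1987 of 11554 genes had an adjusted p under 0.05, and Gli1-PtgscKO replicate 1 stood alone. Members whose groups did not overlap were 2, 1 by library size alone, 0 with length correction and 4 to 7 with a library left out, which fewer libraries make easier. The share of all genes without overlap was taken for the first of these counts only (21.0%). Members called in villi were 2, beside 13.4% of all genes higher and 9.4% lower. By library size alone they were 4, beside 25.3% and 2.33%. Without Gli1-PtgscKO villus replicate 1 the log2 differences of Per2, Per3, Per1 and Clock were 1.89, 1.34, -0.01 and 0.96. Without replicate 2 they were 2.25, 2.15, 1.52 and 1.03. Members with tissues apart were 3, 5 with median-of-ratios and 6 with length correction. Both alternatives remove the shift common to all genes. The share of all genes apart was taken in RPM only (63.4%), so the higher counts cannot be read as particular to clock genes. The arm balance difference between genotypes ran from -0.21 to 0.89 in crypts and -0.81 to 0.27 in villi with a library left out.

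The crypt fold change of Bhlhe40 turned by library size alone (-0.0091). With a library left out, 9 genes turned in sign: Dbp ran from -0.80 to 0.49, Per1 from -0.16 to 1.14, Per2 from -0.14 to 0.63, Per3 from -0.64 to 0.22, Clock from -0.89 to 0.10, Cry1 from -0.0045 to 0.33, Cry2 from -0.55 to 0.0013, Npas2 from -0.79 to 0.13 and Bhlhe40 from -0.26 to 0.39. Without Ctrl replicate 1 Dbp, Per3, Cry1 and Cry2 turned, without Ctrl replicate 2 Per2, Npas2 and Bhlhe40, and without Gli1-PtgscKO replicate 1 Per1, Clock, Npas2 and Bhlhe40. The cause was not tested.

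The replicate number as a block left 0 members past either threshold, and 34 of all genes at an adjusted p under 0.05 by limma in place of 0 (78 in place of 21 at the study's threshold). Same-numbered crypt libraries deviated together (correlation 0.247 over 11554 genes), which is a hint only, since the labels share only a number. Each group of 2 libraries was centred on its mean, so both numbers give this same value by construction. Within number 1 the arm balance differed by 0.27 between genotypes and within number 2 by 0.41. On recovered reads edgeR gave 0 genes at an adjusted p under 0.05 and DESeq2 11, with 0 members in either. With 2 libraries in a group, intervals such as -1.30 to 0.99 for Dbp leave over 2-fold changes in some genes undetectable.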
